A study of Homo sapiens with 6 samples.

Results

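The locus described here was the stretch of chromosome 2 from 172.0 to 173.2 Mb (GRCh38) that holds PDK1, ITGA6 and RAPGEF4, followed through every accessible interval listed in it. The genes and the window were chosen by the q-values and implied read depths of these same intervals, which earlier results had shown to be high there. Fold enrichments and widths come from the same lines, so the values below are descriptions, with no test. The window held 84 of the 41450 intervals on chromosomes 1-22, X and Y in 6 lists, namely 19 of 14262 in clone 1, 59 of 24981 in clone 2, 6 of 2188 in clone 3, and 0 of 13, 0 of 4 and 0 of 2 in control lines 1, 2 and 3. Counted as merged regions, it held 57, against 2953 on the rest of chromosome 2.

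Chromatin accessibility was measured by ATAC-seq, in which a transposase cuts and tags open DNA. U937, the line used, is a human monocytic cell line long in laboratory use. The control group was 3 lines that carried a control plasmid. The other group was 3 independent clones, called ΔNSPs, depleted of the neutrophil serine proteases CTSG, ELANE and PRTN3. All 6 were kept under geneticin selection, exposed to DNase, washed and frozen in a medium with DMSO before the assay. A clone descends from 1 cell, so what a clone shares with the others was read over 3 clones only. The labels do not say whether the 3 control lines came from separate transductions.

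The control lists were too short to show whether the locus was closed in control cells. A listed interval had a -log10 p of at least 7.445 in the control lines and of at least 4.859 in the clones. Of the window's intervals, 16 of 19 in clone 1, 41 of 59 in clone 2 and 6 of 6 in clone 3 had a -log10 p above 8.0, the highest of the 3 control minima. Read totals were not in the lists, so depth is unknown. Bulk libraries cannot tell apart a site open in more cells from a site open more often in each cell. Of the targeted genes, only CTSG had an interval within 1000 bp of a gene end, in clone 2 alone; such intervals do not check a depletion of protein. Of 10 monocytic marker genes, CD68 and ITGAM had such an interval in at least 2 clones, while LYZ, FCGR1A, SPI1 and MPO had none in any library. Of 6 lymphoid markers CD3E had one in at least 2 clones, and 0 of 5 epithelial, 0 of 4 fibroblast and 0 of 3 erythroid markers had one. The monocytic count (2 of 10) and the lymphoid count (1 of 6, 16.7%) were near the share of 23.3% of all 19974 protein-coding genes with such an interval in at least 2 clones and no control line, so the markers do not set the libraries apart as monocytic.

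PDK1 encodes a mitochondrial kinase that phosphorylates the pyruvate dehydrogenase complex and so slows the entry of pyruvate into the tricarboxylic acid cycle; its gene is a known target of hypoxia-inducible factors, which bind the core motif ACGTG. ITGA6 encodes the alpha-6 integrin subunit, which pairs with a beta subunit to form a receptor for laminin in basement membranes and lets cells adhere and migrate. RAPGEF4 encodes EPAC2, an exchange factor that loads the small GTPase RAP1 with GTP when it binds cyclic AMP. The other protein-coding genes of the window were METAP1D, a mitochondrial methionine aminopeptidase, the homeobox factors DLX1 and DLX2, which act in forebrain and craniofacial development, and MAP3K20, a stress-activated kinase.

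The sequences before the transcript starts show how differently composed DNA lay under, or away from, the intervals. Each stretch is the 250 bases before a start in RefSeq (GRCh38.p14), read 5′ to 3′ on the + strand, with capitals on 4 motifs searched on both strands. The motifs were the GC box GGGCGG, the hypoxia response core ACGTG, the CCAAT box CCAAT and the TATA box TATAAA, and matches may overlap.
PDK1 downstream start, chr2:172555840-172556089: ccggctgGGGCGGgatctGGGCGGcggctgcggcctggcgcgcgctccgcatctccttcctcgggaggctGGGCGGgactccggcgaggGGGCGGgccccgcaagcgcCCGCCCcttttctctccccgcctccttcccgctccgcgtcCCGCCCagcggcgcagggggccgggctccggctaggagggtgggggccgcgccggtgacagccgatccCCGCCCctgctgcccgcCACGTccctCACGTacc
PDK1 upstream start, chr2:172555123-172555372: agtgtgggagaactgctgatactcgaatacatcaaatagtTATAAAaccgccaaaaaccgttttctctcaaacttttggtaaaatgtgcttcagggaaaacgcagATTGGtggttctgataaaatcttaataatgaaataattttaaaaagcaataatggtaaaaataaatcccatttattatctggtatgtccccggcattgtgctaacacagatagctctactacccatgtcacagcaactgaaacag
ITGA6 upstream start, chr2:172427086-172427335: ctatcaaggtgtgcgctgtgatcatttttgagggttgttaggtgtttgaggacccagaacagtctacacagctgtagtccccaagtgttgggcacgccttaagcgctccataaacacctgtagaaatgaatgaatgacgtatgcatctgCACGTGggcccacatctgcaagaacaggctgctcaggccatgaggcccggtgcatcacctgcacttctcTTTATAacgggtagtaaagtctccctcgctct
RAPGEF4 start nearest PDK1, chr2:172735595-172735844: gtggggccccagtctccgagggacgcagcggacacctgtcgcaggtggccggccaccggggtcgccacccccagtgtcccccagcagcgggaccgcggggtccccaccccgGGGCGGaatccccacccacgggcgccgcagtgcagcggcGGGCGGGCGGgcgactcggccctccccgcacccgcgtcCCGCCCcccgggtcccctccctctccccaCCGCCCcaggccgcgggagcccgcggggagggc
METAP1D start, chr2:171999703-171999952: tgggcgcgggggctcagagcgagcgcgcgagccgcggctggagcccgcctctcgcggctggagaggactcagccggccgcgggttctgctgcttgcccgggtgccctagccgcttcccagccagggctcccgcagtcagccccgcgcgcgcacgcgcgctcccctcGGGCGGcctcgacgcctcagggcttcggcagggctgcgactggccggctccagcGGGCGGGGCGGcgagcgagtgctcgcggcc

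The PDK1 downstream start held 7 GC boxes and 2 hypoxia cores close to the start, at a GC content of 79.6%, above that of 96.3% of 35116 RefSeq promoters of this length. The PDK1 upstream start had a GC content of 35.6%, above 6.19% of promoters, with 1 CCAAT box and 1 TATA box. The ITGA6 upstream start held 2 overlapping matches to the core, which are the palindrome CACGTG read on both strands. The ITGA6 downstream start, 250 bases on, had a GC content of 71.6% with 3 GC boxes and 1 hypoxia core. RAPGEF4 had 5 GC boxes at a GC content of 82.0%, and METAP1D had 3 at 79.2%. Over all promoters the median GC content was 58.0%, and 42.6% held a GC box, 18.5% a hypoxia core, 32.0% a CCAAT box and 10.7% a TATA box. A match is a description of letters and shows no binding.

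In each clone the PDK1 start carried one of the strongest intervals of the whole list by -log10 q and read depth, the values that chose the locus. Per summit, the deposited lists hold the enrichment over local background, as a fold, and a p-value. Together these imply how many reads piled up at the summit and how many the background would give; both are in reads of that library and are not scaled between libraries. In clone 1 the interval ran from 172555407 to 172556887, 1481 bp with 4 summits, enriched 3.99-fold at a -log10 q of 83.42. Its implied pile-up was 318 reads over a background of 78.96, and its -log10 q ranked 1 of 14262.

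In clone 2 the same stretch was split into 3 intervals. The one over the start ran from 172555442 to 172556144, with a pile-up of 202 over a background of 54.83, a fold of 3.636 and a -log10 q of 45.91, rank 19 of 24981. The next, from 172556430 to 172556557, had a pile-up of 151 over 25.84, a fold of 5.664 and a -log10 q of 56.64, rank 7. In clone 3 the start interval ran from 172555562 to 172556254, with 230 over 91.1, a fold of 2.508 and a -log10 q of 27.08, rank 2 of 2188. A second clone 3 interval, from 172556383 to 172556671, had 114 over 39.35. By pile-up and by background, the start interval ranked 1, 2 and 1 among chromosome 2 intervals in clones 1, 2 and 3, but by fold enrichment it ranked 277 of 1185, 1429 of 2301 and 79 of 100. Over the whole list its fold ranked 4500 of 14262, 17976 of 24981 and 1840 of 2188. Its rank by fold was below its rank by depth in all 3 clones, though in clone 1 its fold of 3.99 was above the upper quartile of the rest of the chromosome (3.912).

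The intervals covered the GC-rich start and left the AT-rich one almost uncovered. All 300 bases around the PDK1 downstream start (250 before, 50 after) lay inside the interval in each clone. Around the upstream start 16, 0 and 0 bases were covered, and the nearest interval began 34, 69 and 189 bp past it. The summits of highest pile-up lay at 172556003 in clone 1 (335 reads over 96.36), at 172556067 in clone 2 and at 172555853 in clone 3. A further summit recurred at the start of the antisense RNA PDK1-AS1 (transcript start 172556464), at 172556451, 172556479 and 172556478 in clones 1, 2 and 3. Its pile-up was 165, 151 and 114 reads and its background 35.24, 25.84 and 39.35. Implied background was lower at the antisense start than at the summits before the downstream PDK1 start in all 3 clones. Pile-up was lower there too in clones 1 and 3. In clone 2 the summit at 172555845 had fewer reads (126) than the antisense start.

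**Figure D1:**
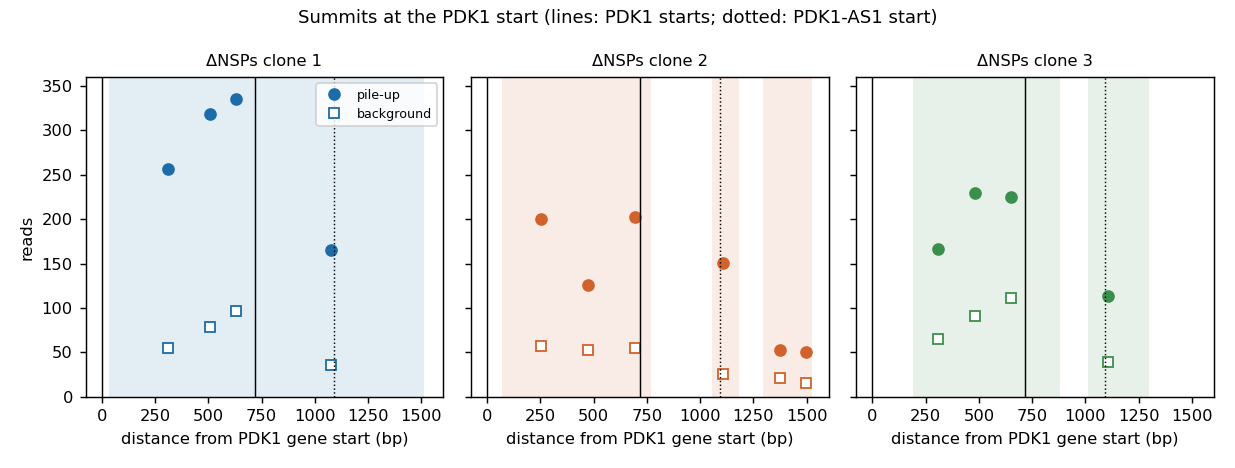
Implied pile-up (filled circles) and background (open squares), in reads, of each summit listed at the PDK1 start, by distance in bp from the start of the PDK1 gene, for the 3 ΔNSPs clones; shading marks intervals, solid lines the 2 PDK1 starts and the dotted line the PDK1-AS1 start. Pile-ups reach 335 reads in clone 1, and the summit at the antisense start has a lower background (35.24, 25.84 and 39.35) than the summits to its left.

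The 300 bases of PDK1-AS1's own start were covered over 300, 175 and 257 bases. Within the PDK1 gene (172555373-172724312, + strand) there were 3, 10 and 2 intervals in clones 1, 2 and 3, those at the start included. Far from the start, clones 1 and 2 shared an interval at 137.9 kb (172693139-172693328) with pile-ups of 78 and 69 reads, and another at 142.9 kb with 43 and 39. Clone 3 had neither of these. Exons were not in the gene table, so intervals are placed in genes but not in exons or introns.

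The interval of highest significance in clone 2 lay not at a protein-coding gene start but in the body of PDK1-AS1, at -41.3 kb from the PDK1 start, between ITGA6 and PDK1. It ran from 172513925 to 172514205 in that clone, with a pile-up of 329 over 56.01, a fold of 5.788 and a -log10 q of 127.3, rank 1 of 24981. Clone 1 had 195 reads over 70.62 there, a fold of 2.736 and a -log10 q of 27.94, rank 29. Clone 3 had 176 over 88.04, a fold of 1.988 and a -log10 q of 10.6, rank 38. The site was thus listed in all 3 clones, with its highest fold in clone 2 and its lowest in clone 3. Between the end of ITGA6 and the start of PDK1, 48.9 kb in all, there were 3, 7 and 1 intervals. Clone 1 alone had one at -17.1 kb, with 116 reads over 62.73 and a fold of 1.836.

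ITGA6 (172427336-172506459, + strand) had an interval at its start in clones 1 and 2 and none in clone 3. Clone 1 had 1 interval of 905 bp (172427334-172428238), with 77 reads over 27.05, a fold of 2.781 and a -log10 q of 10.79, which covered all 300 bases around the downstream start and 52 around the upstream one. Clone 2 had 229 bp there (172427481-172427709), with 51 reads over 19.92, a fold of 2.486 and a -log10 q of 5.244, covering 155 bases around the downstream start and 0 around the upstream one. In clone 3 the nearest interval was 86.4 kb from the downstream start. Against PDK1, the ITGA6 start ranked 1285 and 10690 by -log10 q in clones 1 and 2.

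Through the body of ITGA6 the clones differed in number of intervals. Clone 2 had 12 intervals in the gene, or 15.2 per 100 kb, with backgrounds from 9.269 to 35.89 (median 18.44) and a median fold of 2.456. Clone 1 had only the interval at the start and clone 3 had 0. Of the 12, the one of highest background lay at 172465839-172465966, beside the start of the antisense RNA ITGA6-AS1, with 79 reads over 35.89.

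RAPGEF4 (172735318-173052893, + strand) had no interval at any of its 4 transcript starts in any clone, although its start nearest PDK1 had the highest GC content of the 5 stretches printed above. The nearest intervals to that start were 37.4, 37.4 and 179 kb away in clones 1, 2 and 3. In its 317.6 kb the gene held 1, 4 and 0 intervals. The 1 in clone 1, at 173049322-173049546 near the far end, had 58 reads over 13.16 and a fold of 4.167. It overlapped a clone 2 interval with 50 reads over 12.03 and a fold of 3.914. The other 3 clone 2 intervals had backgrounds of 18.34, 3.55 and 2.04 and pile-ups of 69, 19 and 13 reads. At these depths a missing interval does not show a closed start.

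Of the 7 protein-coding genes with a base in the window, 5 had an interval within 1000 bp of a gene end in at least 2 clones and no control line (METAP1D, DLX1, DLX2, ITGA6 and PDK1). The same held for 24.6% of 1247 protein-coding genes on the rest of chromosome 2. The window was placed on these genes with their intervals in view, so nothing is read from that difference. METAP1D, DLX1 and PDK1 had one in all 3 clones, MAP3K20 in clone 2 only and RAPGEF4 in 0. Of these 5, the fold was at least 3 in 2 clones or more for METAP1D and PDK1 only.

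The METAP1D start had pile-ups of 105, 34 and 53 reads over backgrounds of 22.08, 10.06 and 18.69 in clones 1, 2 and 3, and its -log10 q of 31.03 in clone 1 ranked 16. A second METAP1D interval, in the gene body at 172038724-172038962, was listed in all 3 clones with pile-ups of 45, 40 and 54. DLX1 had 96 reads over 20.11 in clone 1 and 95 over 49.23 in clone 3. A further summit of the clone 1 interval, nearer the DLX1 start at 172085374, had 129 reads over 45.33. In the clone 2 interval nearest that start, DLX1 had 33 over 14.79, with a -log10 q of 2.019. DLX2 had 57 reads over 23.1 in clone 1 and 35 over 9.664 in clone 2 at its intervals of highest -log10 q, which lay at 172102887-172103072 and 172102642-172102726, and none in clone 3. MAP3K20 had 44 over 15.78 in clone 2. At each interval's summit of highest -log10 q, the highest background given here for these 4 genes was 23.1, 15.78 and 49.23 in clones 1, 2 and 3. The PDK1 start had 78.96, 54.83 and 91.1 at such summits.

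Between DLX2 and ITGA6 lay 324.4 kb without a protein-coding gene, which held 6, 19 and 0 intervals. In the long non-coding gene LOC107985960, clones 1 and 2 shared an interval at 172253194-172253468 with 122 and 124 reads over backgrounds of 54.39 and 42.99. A second shared one, at 172280892-172281160, had 100 reads over 44.6 in clone 1 and 160 over 37.67 in clone 2, where its -log10 q of 42.97 ranked 22. The next, outside any annotated gene at 172380483-172380888, had 50 over 16.52 and 123 over 26.62, and ranked 48 in clone 2. In clone 2 all 3 of these distal sites had more reads than the ITGA6 start (51).

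Of the window's 57 regions, 17 (29.8%) were in at least 2 clones and no control line, against 475 of 2953 (16.1%) on the rest of chromosome 2. In all 3 clones there were 5 (8.77%) and 41 (1.39%). The 5 were the METAP1D start and body intervals, DLX1, the PDK1-AS1 interval at -41.3 kb and the PDK1 start. Clone 2 alone held 38 (66.7%), against 59.0% of regions elsewhere on the chromosome, and clone 1 alone 2 (3.51%), against 23.5%. Clone 2 also listed 17 of the 19 regions of clone 1 (89.5%), which were 30.9% of its own 55, against 39.8% of clone 1's and 21.0% of clone 2's regions elsewhere. All 5 clone 3 regions were in both other clones, against 53.8% and 46.2% elsewhere. Background and pile-up also differed between the window and the rest of the chromosome, as given next. Their part in the sharing was not tested.

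Against the rest of chromosome 2, the window held more intervals per Mb with more reads under each, and lower folds. The density was 15.83 against 4.839 intervals per Mb in clone 1, 49.17 against 9.304 in clone 2 and 5.0 against 0.3901 in clone 3. The median background was 22.08 against 7.019 reads in clone 1, 13.81 against 3.747 in clone 2 and 44.29 against 5.63 in clone 3. It was above the median of the rest of the chromosome in 18 of 19, 56 of 59 and 6 of 6 window intervals. The median pile-up was 77 against 26, 40 against 18 and 104.5 against 21.5. The median fold enrichment went the other way, at 2.847 against 3.276, 3.165 against 3.906 and 2.626 against 3.43. Only 6 of 19, 10 of 59 and 0 of 6 window intervals had a fold above the median elsewhere.

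As log2 ratios of window to rest, averaged over the clones, the difference was 2.60 ± 0.999 (SD, n = 3) for density, 2.17 ± 0.707 for background, 1.67 ± 0.571 for pile-up and 1.12 ± 0.624 for -log10 q. It was -0.297 ± 0.0919 for fold enrichment. Each of these had the same sign in 3 of 3 clones. Width was 0.41 ± 0.467, also of 1 sign in 3 of 3 clones, with a mean smaller than its SD. At a given fold, a p-value gets smaller as reads are added, by arithmetic alone. By the same arithmetic, a deep summit can be listed at a fold too low for a shallow one. The fold of another deep bin is given below for each clone. The part of read depth in the window's lower folds was not tested.

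**Figure D2:**
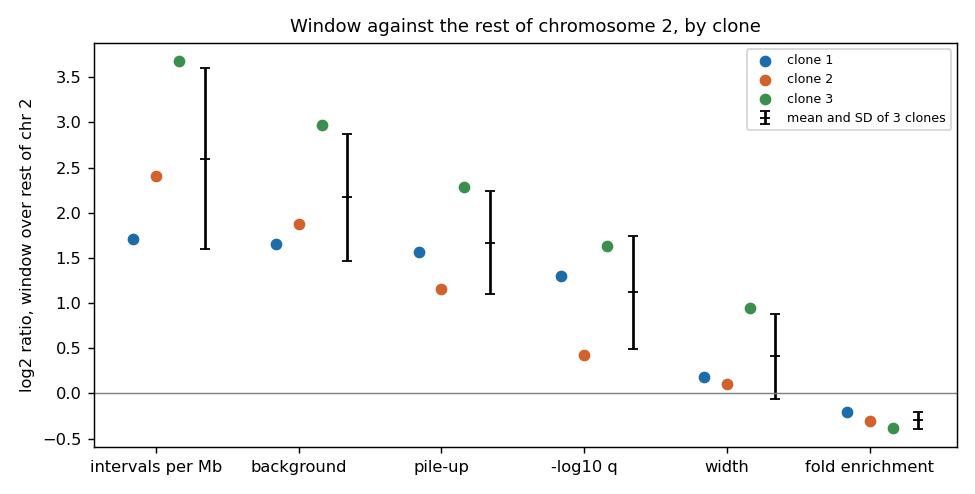
Log2 ratio of the window to the rest of chromosome 2 for 6 measures, with a point for each ΔNSPs clone and a bar for the mean and SD of 3 clones; density is a ratio of intervals per Mb and the others are ratios of medians. All clones lie above 0 for density, background, pile-up, -log10 q and width, and below 0 for fold enrichment (mean -0.297).

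The deepest intervals of chromosome 2 lay in the window. Each interval was taken at its summit of highest -log10 q. The window's highest background was then 78.96, 56.01 and 91.1 in clones 1, 2 and 3, against 68.29, 52.07 and 64.68 for the highest elsewhere. Its highest pile-up was 318, 329 and 230, against 167, 187 and 106. Other summits of the PDK1 start intervals had backgrounds up to 96.36, 57.59 and 111.4. The window gave 4, 5 and 3 of the 100 intervals of highest -log10 q in each list, and all the rest of chromosome 2 gave 9, 5 and 2.

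**Figure D3:**
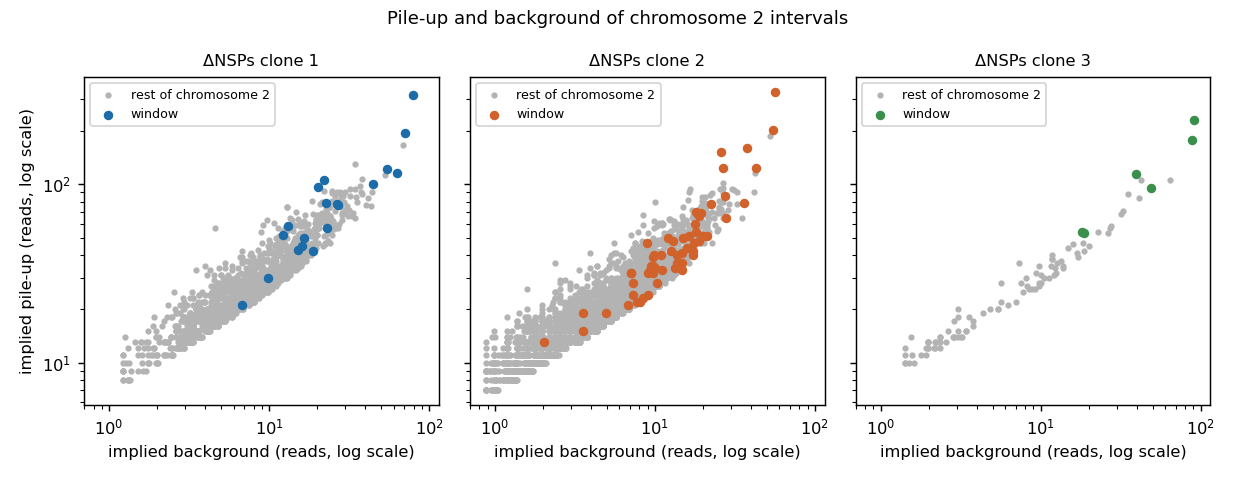
Implied pile-up against implied background, both in reads on log axes, for every chromosome 2 interval of the 3 ΔNSPs clones, with window intervals coloured. Each interval is shown at its summit of highest -log10 q. Window intervals lie toward the deep end of the band and reach 318, 329 and 230 reads.

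The high background was not confined to the PDK1 start. In clones 1 and 3 its median was highest near that start, while in clone 2 it was about level out to 300 kb. By gene, the clone 2 median was 18.44 in ITGA6 and 16.17 in PDK1. In clone 1 the median background was 66.68 reads within 50 kb of the PDK1 start, 26.47 from 50 to 300 kb, 17.4 from 300 to 1000 kb and 9.943 from 1000 to 3000 kb, over 4, 5, 18 and 29 intervals. In clone 2 it was 16.37, 16.07, 10.45 and 8.776, over 11, 30, 30 and 32. In clone 3 it was 88.04 within 50 kb, 18.69 from 300 to 1000 kb and 18.15 from 1000 to 3000 kb, over 3, 5 and 4 intervals. From 3000 to 10000 kb it was 11.52, 3.353 and 7.996 in clones 1, 2 and 3, so in clone 1 it was higher there than from 1000 to 3000 kb. Most of these bins hold under 20 intervals, so the steps are descriptions. Without the intervals within 50 kb of the PDK1 start, the mean log2 ratio of background was 1.65 in place of 2.17, and that of density 2.18 in place of 2.60.

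By place, intervals in gene bodies had 4.41, 3.59 and 17.9 times the median background of gene-body intervals elsewhere on the chromosome in clones 1, 2 and 3, and those at transcript starts 2.76, 1.68 and 3.79 times. Among intergenic intervals the ratio was 1.63 and 3.87 in clones 1 and 2, with none in clone 3. The clone 3 values rest on 2 gene-body and 4 start intervals.

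**Figure D4:**
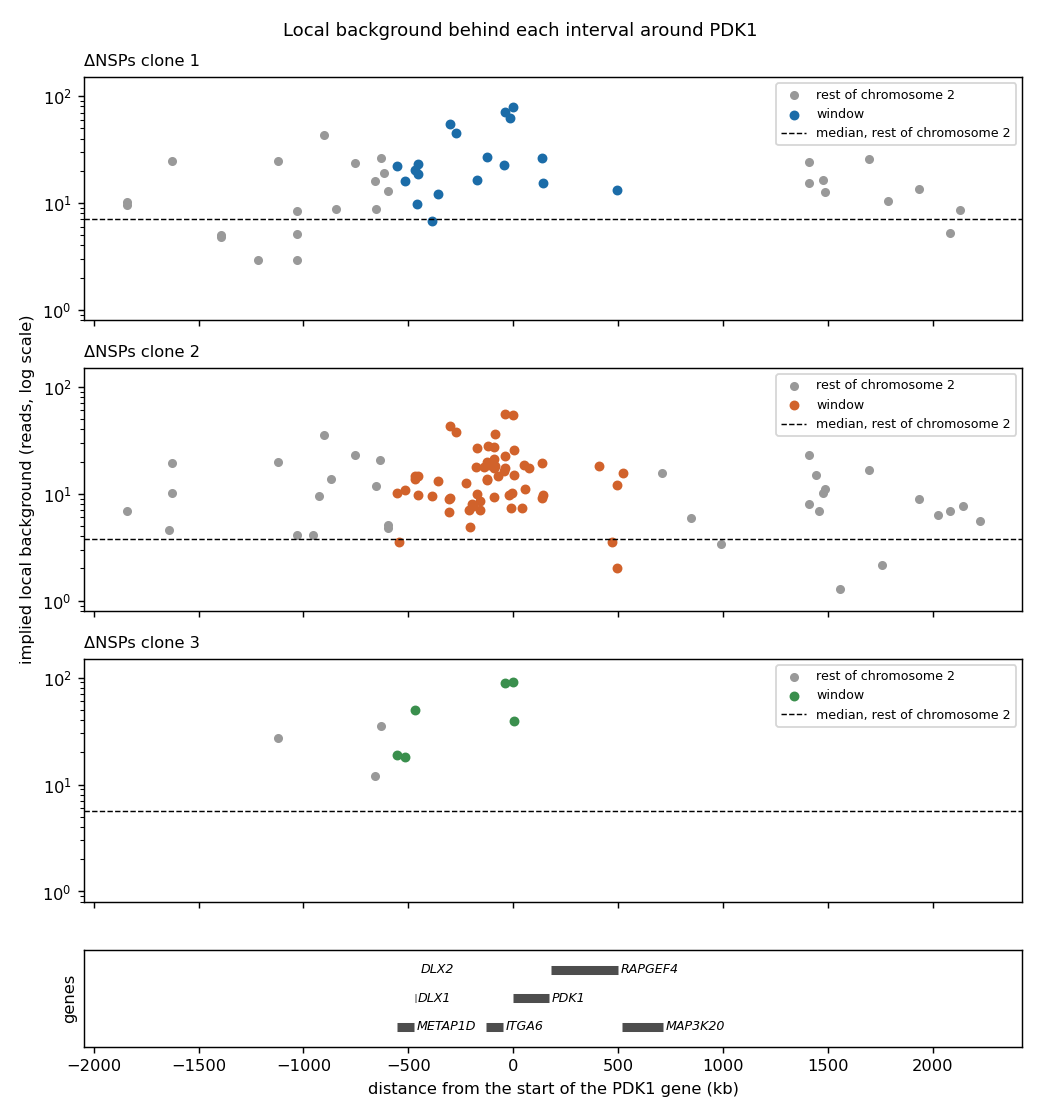
Implied local background in reads (log axis) of each interval by distance in kb from the start of the PDK1 gene, for the 3 ΔNSPs clones, with window intervals coloured, other chromosome 2 intervals grey, the median of the rest of the chromosome dashed and protein-coding genes of the window below. Coloured points are highest at the PDK1 start in clones 1 and 3 (78.96 and 91.1 reads). In clone 2 the highest, 56.01, lies at -41.3 kb, and the PDK1 start has 54.83. Few points lie over RAPGEF4.

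Cut into bins of 1.2 Mb, with at least 3 intervals each, chromosome 2 had its highest median background in the bin of this window in clone 1 (1 of 127) and clone 3 (1 of 10), and its second highest in clone 2 (2 of 191, after a bin at -28.8 Mb with a median of 16.76). By fold the window ranked 105, 183 and 8. The other bin of highest median background had a median fold of 2.486, 3.153 and 2.456 in clones 1, 2 and 3. These bins held only 3, 3 and 4 intervals, and that of clone 3 adjoined the window. The window's bin had 2.814, 3.173 and 2.508, so these few intervals had a median fold as low. By number of intervals the window ranked 13 of 167, 1 of 199 and 2 of 57 bins with any interval. In clone 1 another bin held 26 against its 18. At the METAP1D edge, the last interval before the window had backgrounds of 13.01, 5.128 and 35.22 and pile-ups of 38, 20 and 88 reads, and the first inside it 22.08, 10.06 and 18.69 with pile-ups of 105, 34 and 53, so both were higher inside in clones 1 and 2 and lower in clone 3. At the other edge the last inside had backgrounds of 13.16, 15.78 and 39.35 and the first after it 15.35, 15.78 and 40.97. These pairs lie far apart, the last inside ending at 173049546, 173075866 and 172556671 and the first after starting at 173963736, 173264769 and 175168290, so they show nothing about a step at that edge.

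Where clones 1 and 2 shared a region, their log2 backgrounds were correlated across the 17 window regions (Pearson r = 0.811) about as across 464 regions elsewhere on the chromosome (r = 0.794). For pile-up r was 0.682 and 0.688. For fold enrichment it was 0.0611 and 0.278. Regions of 1 library share its depth and are not replicates, so these values are descriptions.

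Of the pyruvate dehydrogenase list, 8 of 14 genes (57.1%) had a gene-end interval in at least 2 clones and no control line, against 23.3% of all 19974 protein-coding genes. They were PDK1, its relative PDK2, the phosphatase PDP2, the complex subunits PDHB, DLAT and DLD, and the mitochondrial pyruvate carriers MPC1 and MPC2. PDK4, PDP1 and PDHX had no gene-end interval in any clone. Of the 8, PDK1 alone was listed in clone 3. DLD had 45 reads over 14.77 in clone 1 and 41 over 9.269 in clone 2, and MPC2 53 over 19.74 and 42 over 11.44. PDHB had 39 over 6.208 and 33 over 9.664, and MPC1 72 over 28.51 and 49 over 18.54. PDK1 had the most reads of the 5 genes named here with their values. It was chosen by the depth of these same intervals, so nothing is read from that, and it is itself counted among the 8. The list was written with earlier results known and gets no test.

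Of 19 genes of laminin-binding integrins and their partners, 3 (15.8%) met the same rule, namely ITGA6, the tetraspanin CD151 and TLN1, which links integrins to actin. TLN1 was listed in 3 clones, with 61, 75 and 41 reads over 18.72, 12.62 and 17.07. CD151 had 14 and 11 reads at 2 separate positions in clones 1 and 2. Of 23 genes of cyclic AMP and RAP1 signalling, 7 (30.4%) met it, RAPGEF4 not among them. They were RAP1B, RAP2B, SIPA1L1, SIPA1L3, APBB1IP, PRKACA and PRKAR2A. PRKACA, a catalytic subunit of protein kinase A, was listed in 3 clones with 63, 77 and 64 reads over 20.91, 16.57 and 23.18. SIPA1L3 had 40 and 67 reads in clones 1 and 2, PRKAR2A 24 and 20, RAP1B 20 and 18, and RAP2B 32 and 46. For RAP1B and for RAP2B, the intervals of clones 1 and 2 lay at separate positions. The shares of the integrin and cyclic AMP lists lie below and above 23.3%.

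The gene-end interval most like that of PDK1, among 1076 genes listed in all 3 clones, was that of COQ10B, a coenzyme Q-binding protein also on chromosome 2. Likeness was the distance over 6 values, log2 pile-up and log2 background against the library's median in each of 3 clones, and COQ10B lay at 1.56. Its background was 11.6, 14.7 and 9.0 times the library median, against 13.4, 15.4 and 12.7 times for PDK1. Its pile-up was 6.96, 10.4 and 3.89 times the median, against 13.2, 11.2 and 8.52 times for PDK1. They were less alike in pile-up than in background in all 3 clones, though only slightly in clone 2. Its fold was 2.425, 3.543 and 1.614. Its -log10 q was 18.65, 40.87 and 2.05, so in clone 3 it was barely above the lowest listed value of 2.0. Next came CAB39L, SETDB2 and SETDB2-PHF11, which share 1 interval on chromosome 13, at 2.2, and FBXO24 on chromosome 7, at 2.26.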

How the data were processed

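ATAC-seq of 3 control lines and 3 ΔNSPs clones of U937 cells was analysed from 6 deposited peak lists, 1 per library; groups came from the titles. Per the submitters' processing notes, FastQC, Bowtie2, Picard and MACS2 were used with GRCh38; versions, settings, any transposase shift and read totals were not given in the sources used here. The authors' deposited lists give a fold enrichment, a ratio over local background, and −log10 p and −log10 q values per summit. Lines of 1 interval were counted once, with the summit of highest −log10 q.

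Pile-up and background were solved from fold, (pile-up + 1)/(background + 1), and p, the Poisson chance of more reads than the pile-up. Pile-ups came out whole, within 0.05 read, for 100% of lines in all 6 lists. On 1736 simulated summits, with pile-ups up to 3397, 1735 were recovered.

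Overlapping intervals of any list (1 bp or more) were merged into regions. Gene ends were 1000 bp either side of both ends of 19974 protein-coding genes (RefSeq, GRCh38.p14, chromosomes 1-22 and X). Transcript starts and sequences came from RefSeq promoters. Density used a chromosome 2 length of 242175685 bp, the highest coordinate listed. Columns of other samples used were 0.

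The members, gene lists and comparisons were chosen with earlier results of these data known. Named genes were the 3 members, other protein-coding genes of the window, up to 5 genes per list by number of clones and then rank of −log10 q, and the 5 most like PDK1; other members of a list are named only to account for its count. Alternatives changed thresholds, window, reference, summary and libraries. Python 3.11.15, NumPy 2.4.6, SciPy 1.17.1 and pandas 2.3.3 were used.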

Additional observations from a re-analysis of the deposited data

How the results depend on the processing

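Of 85 alternative values of 8 results, 74 moved by less than 1 SD over clones, or, for counts, by less than 1.5 times, 11 moved by more and 0 changed sign. The cause of the larger moves was not tested, except that requiring more clones or fewer intervals lowers a count by construction. With a −log10 q of at least 5 the mean log2 density ratio was 4.21 in place of 2.60. The 17 regions in at least 2 clones became 4 with a fold of at least 3, 9 in the window narrowed by 200000 bp on each side and 5 when all 3 clones were required. The 5 genes became 2, 2 and 3 in the same order. Leaving out a library in turn gave 5 to 17 regions and 3 to 5 genes, the lowest without clone 2 for regions (5; without clone 1, 6) and without either of these clones for genes (3). The mean log2 background ratio ran from 1.61 to 2.73 over its 11 alternatives, and the fold ratio from -0.37 to -0.25 over 10. Leaving out intervals within 50000 bp of the PDK1 start was chosen after seeing the data. No paired analysis was possible because the values come from no test and the replicate numbers mark no shared culture or day. Depth per library is unknown, which limits what a missing interval shows, in the control lines most of all.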
